A study of Mus musculus with 11 samples.

Results

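The comparison set mesenchymal progenitors sorted from skeletal muscle against whole muscle, both from mice labelled WT. It used 5 of the 11 libraries of the series, chosen by their labels alone. Of these, 3 hold RNA of sorted progenitors from hindlimb muscle collected 14 days after tamoxifen, from animals 72B8, 74A2 and 73C3. The other 2 hold RNA of total lysate of the tibialis anterior, a muscle of the lower hindlimb, collected 56 days after tamoxifen, from animals 73A5 and 73A7. The muscle was labelled as resting in both. Animal 74A2 is listed as female and the other 4 as male, and no age is given.

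The series was made to study beta-catenin in these progenitors. Its mice carry Hic1CREERT2, a tamoxifen-inducible Cre recombinase read from the Hic1 locus, a Td.tomato reporter that Cre switches on, and in the other genotype, WTflox, a b-CATENIN exon3 allele that Cre can alter. The labels give the 5 animals used here only as WT, and do not say which of them carried Cre or the reporter, although the progenitors were collected by tdtomato signal. The sort gate was CD45-, CD31-, Sca1+, tdtomato+ and alpha7-. Each library is 1 animal, and each animal gave 1 library. A sorted library therefore describes the cells that both the Hic1 promoter and the gate pick out, after digestion of the tissue, while a lysate describes all the cells of the muscle together, the progenitors among them. Material, day after tamoxifen, RNA kit and the muscle sampled all change together between the groups and cannot be told apart, and the only female library lies on the progenitor side.

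Mesenchymal progenitors, also called fibro-adipogenic progenitors, lie between the muscle fibres and are known as the main makers of the connective tissue around them. They carry the receptor PDGFRA, can turn into fibroblasts or adipocytes, and send signals that muscle stem cells use during repair. The muscle fibre is a fused, contractile cell. Its RNA is dominated by transcripts for myosin, actin and the other parts of the sarcomere, for the calcium pumps and channels that trigger contraction, and for the enzymes that supply ATP.

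Library totals ran from 13119843 to 16805238 counts in the progenitors and were 17079771 and 16892158 in the muscle. Of 24421 gene symbols in the tables, 7334 had 0 counts in all 5 libraries, and none was encoded in the mitochondrial genome. The most abundant gene was Gsn in each progenitor library, with 5.16 to 6.21% of all counts, and Myh4 in each muscle library, with 3.58 and 3.30%. The sex listed for each animal matched its X- and Y-linked transcripts in all 5 libraries. The submitters' sample tables list every library as FAPs, the lysates too, which goes against the labels and against the muscle genes below. Library 73C3 stood somewhat apart from the other progenitor libraries. Its share of counts in ribosomal protein genes was 3.08%, against 1.75% in 72B8 and 1.62% in 74A2, and its share in collagens was 5.26%, against 7.92 and 8.002%.

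Levels below are CPM, the counts of a gene relative to all counts of its library, scaled between libraries by the trimmed mean of M-values, and are given in the order 72B8, 74A2, 73C3 for progenitors and 73A5, 73A7 for muscle. Differences are log2 fold changes of progenitors over muscle with their standard error (SE), from edgeR's quasi-likelihood F test, and a gene was called at a Benjamini-Hochberg adjusted p under 0.05 over all genes tested. Where nothing says otherwise, "higher" and "lower" refer to the progenitors.

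The materials differed in most genes. Of 13309 genes tested, 9597 were called, which is 72.1%. Of these, 5019 (37.7%) were higher and 4578 (34.4%) lower in the progenitors. Genes at least 8-fold apart numbered 1562 higher (11.7%) and 1496 lower (11.2%). The libraries of the materials did not overlap in 81.7% of the genes tested. The first principal component held 93.9% of the variance and separated the materials. Pearson's r of log2 CPM across genes was 0.966 to 0.980 between libraries of 1 material and 0.480 to 0.533 between materials. With so many genes called, a call says little about a single gene, so gene lists are described by their counts, the number at least 8-fold apart and their median, beside the median of 0.15 over all genes tested.

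The split between higher and lower depended on the scaling. The 100 most abundant genes took 44.8 and 47.7% of the counts in muscle and 32.2 to 34.1% in the progenitors. Without scaling beyond the library total, 6749 genes were called higher and 3331 lower, so that 67.0% of calls were higher, against 52.3% with scaling. The median over all genes then lay 0.62 further up on the log2 scale. No call turned from higher to lower in that case, and 133 turned from lower to a positive difference, none of them among the 289 genes that the naming rule chose.

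**Figure D1:**
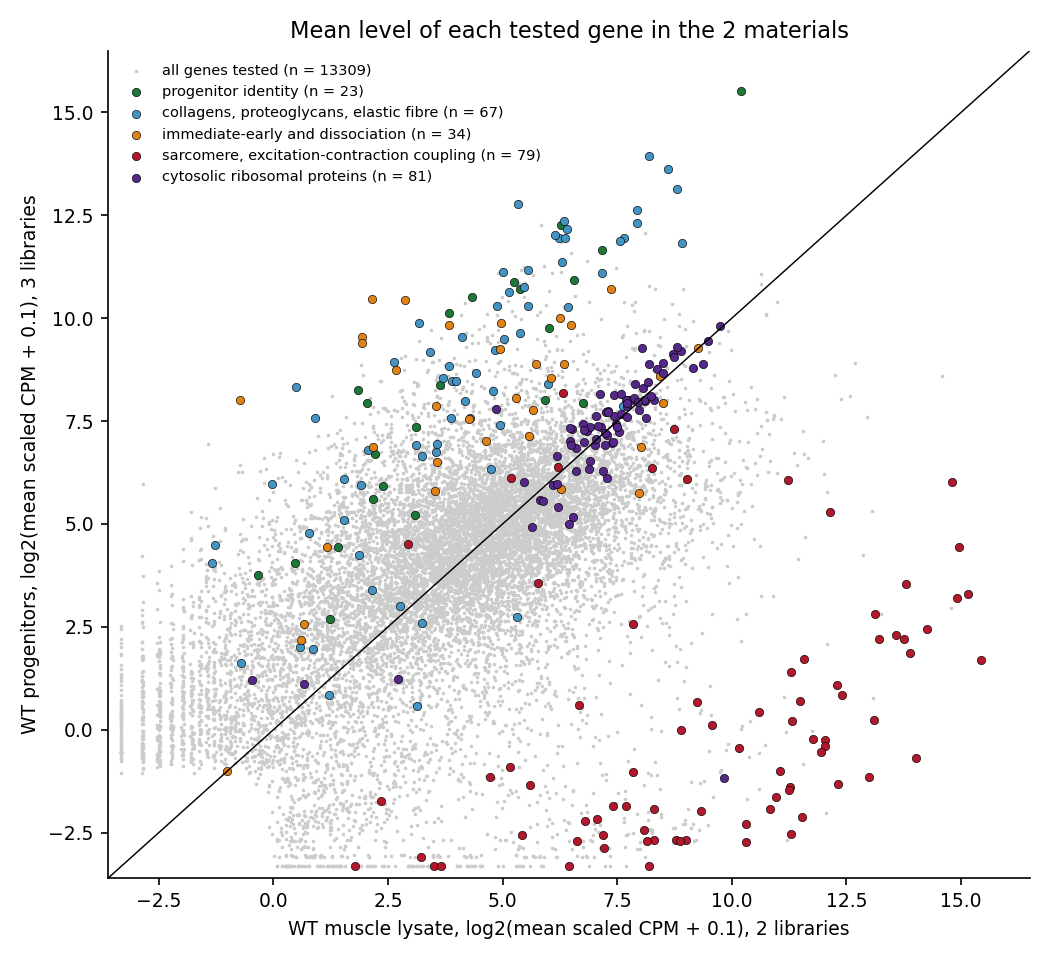
Mean scaled CPM of each of the 13309 genes tested in the 2 muscle libraries (x axis) and the 3 progenitor libraries (y axis), both as log2 of the value plus 0.1. Matrix and progenitor identity genes lie far above the diagonal line of equal levels, sarcomere and excitation-contraction coupling genes far below it, and ribosomal protein genes along it.

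The largest differences over all genes, among those with at least 100 CPM in the higher material, were of distinct kinds in each direction. The 10 largest in the progenitors' favour were Fosb, Ptgs2, Fos, Col6a6, Hspa1b, Egr1, Socs3, Fbn1, C7 and Abca6. They hold immediate-early and heat shock genes, matrix genes, a complement gene, the prostaglandin synthase Ptgs2 (94.9, 91.8 and 181 against 0.2195 and 0.319 CPM, log2 fold change 8.798 ± 0.54) and the lipid transporter Abca6 (307, 285 and 239 against 2.12 and 2.55 CPM, log2 fold change 6.89 ± 0.33). The 10 largest in the muscle's favour included Lmod3, Mylk4, Myh1, Ckmt2, Myadml2, Ttn, Myh2, Lrrc30 and Csrp3. Most of these encode parts of the sarcomere or enzymes of the fibre. Lmod3, Myadml2 and Lrrc30 had 0 counts in all 3 progenitor libraries. Against a floor of 3 counts over the group, Lmod3, which lengthens thin filaments, was at least 5145-fold lower in progenitors, Myadml2 at least 3632-fold and Lrrc30 at least 2842-fold.

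Per kilobase of exon, which allows genes to be set beside each other, Gsn stood first in the progenitors at 14897 CPM per kb. It was followed by Dcn (2165), Eef1a1 (1724), Clec3b (1675), Col3a1 (1592), Igfbp6, Dpt, Myoc, Serping1 and Col1a1. Apart from the translation factor Eef1a1 and the actin-severing protein gelsolin (Gsn), which is also secreted, these encode mainly secreted proteins. In muscle the first 10 were Tnnc2 (24372 CPM per kb), Acta1 (20846), Tnnt3 (19356), Pvalb (14659.6), Mylpf, Atp2a1, Ckm, Tcap, Tnni2 and Myh4. These are parts of the fast-fibre contractile apparatus with its calcium buffer, calcium pump and creatine kinase.

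The genes of the gate and of the Cre driver check the sort and are no finding. Ly6a, which encodes Sca1, was at 533, 442 and 840.2 CPM in the progenitors and 54.7 and 89.97 CPM in muscle (log2 fold change 3.06 ± 0.39, adjusted p = 6.94e-05). Hic1 was at 93.2, 90.1 and 74.8 against 6.59 and 6.23 CPM (log2 fold change 3.74 ± 0.24, adjusted p = 9.59e-07). The genes of the negative gates were all lower in the sorted cells. Ptprc, which encodes CD45, was at 0.129, 0.511 and 0.252 against 1.24 and 3.27 CPM (log2 fold change -2.87 ± 0.65, adjusted p = 0.00288), a call that rests on 73A7, since without that library the difference was -2.03 with an adjusted p of 0.0708. Without 74A2 it was -3.48. Pecam1, which encodes CD31, was at 7.09, 1.99 and 8.46 against 121 and 117 CPM, with 74A2 the lowest. Itga7, the alpha7 integrin of muscle stem cells and fibres, was at 1.999, 1.36 and 2.97 against 143 and 182 CPM (log2 fold change -6.25 ± 0.33). All 5 of these genes lay on the side that the gate and the driver select for, and in none of them did the materials overlap.

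Ctnnb1, the gene of beta-catenin and the gene altered in the other genotype (chromosome 9, 120929216 to 120960507, plus strand, mm10, GENCODE M21), overlapped between the materials. It was at 393, 395 and 449.98 CPM in the progenitors and 396 and 337 CPM in muscle. The difference was 0.17 ± 0.24 and was not called (adjusted p = 0.544). Without scaling it was 0.79 and called (adjusted p = 0.0158).

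**Figure D2:**
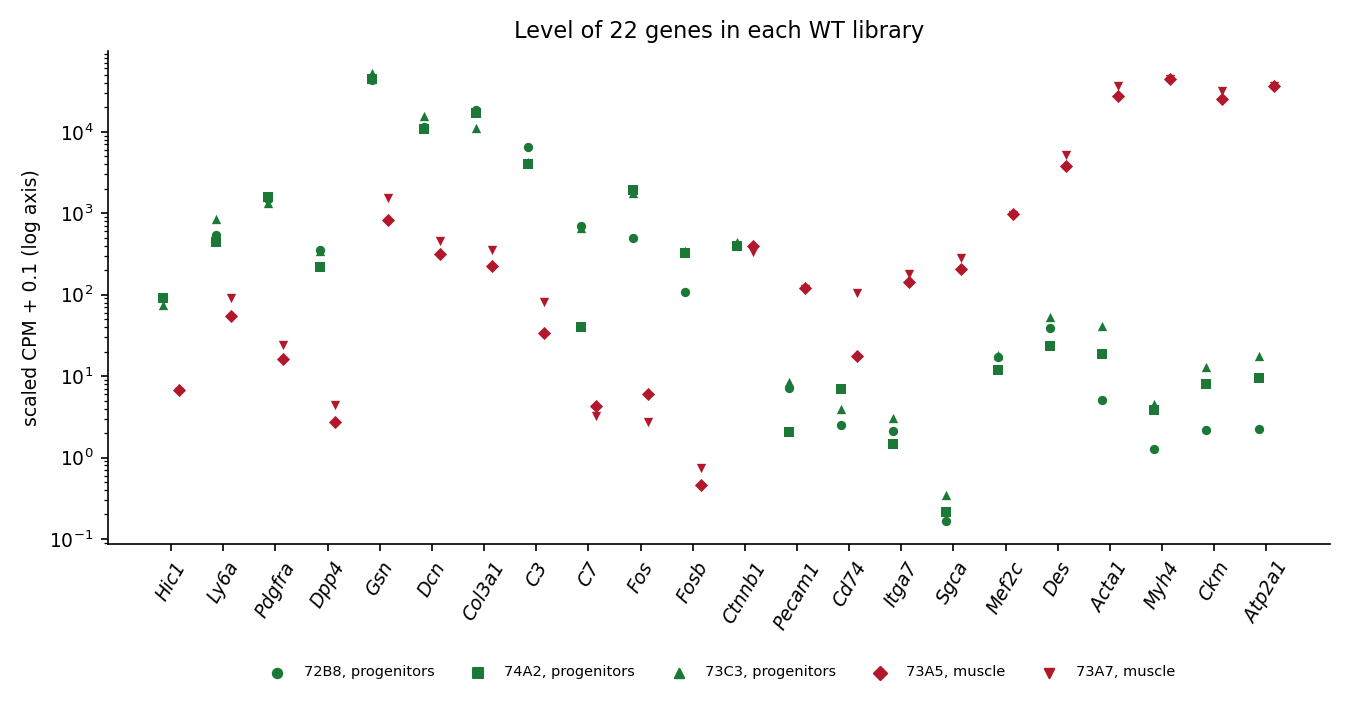
Scaled CPM plus 0.1 (log axis) of 22 genes in each of the 5 WT libraries, with progenitors in green and muscle in red and a marker shape for each animal. The libraries of both materials overlap for Ctnnb1, C7 is low in 1 of the 3 progenitor libraries, Fos and Fosb are lowest in 72B8, and Acta1, Myh4, Ckm and Atp2a1 at the right are lowest in 72B8 among the progenitors.

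Genes that define the progenitors in the literature were high in the sorted cells and low, but read, in muscle. Of 24 such genes 23 were tested and 22 were higher, 19 of them at least 8-fold, with a median of 4.36 on the log2 scale. None was lower. Pdgfra, the PDGF receptor by which these cells are known, was at 1499, 1575 and 1329 CPM against 16.2 and 24.03 CPM in muscle (log2 fold change 6.19 ± 0.397, adjusted p = 8.83e-07). Dpp4, a surface peptidase that marks a less committed state of fibroblasts, was at 356, 216 and 348 against 2.63 and 4.31 CPM (log2 fold change 6.47 ± 0.41). Cd248, the surface protein endosialin, was at 1219.6, 813 and 1316 against 8.63 and 19.6 CPM (log2 fold change 6.304 ± 0.51). Without 73A7, Cd248 differed by 7.01. Lrp1, an endocytic receptor, was at 5587, 5491 and 3709 against 61.5 and 92.4 CPM (log2 fold change 6.001 ± 0.496). In each of these 4 genes the lowest progenitor library lay far above the highest muscle library.

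The 2 members outside this pattern were Nt5e and Tcf21. Nt5e, a surface nucleotidase, was at 8.77, 1.704 and 8.61 against 2.27 and 2.24 CPM, low in 74A2, and was not called (adjusted p = 0.0532). Tcf21 had too few counts in either material to be tested. Prrx1, a limb mesenchyme factor, was the called member with the smallest difference, at 251, 186 and 303 against 123 and 93.6 CPM (log2 fold change 1.19 ± 0.28). Nt5e and Tcf21 were picked out here because they differ from the rest of the list.

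These levels give a measured ratio between the tissue and its sorted cells. Over the 23 genes tested, the median level in muscle was 4.88% of that in the progenitors, and 2.97 to 6.12% when each progenitor library was set against each muscle library. The same median was 4.56% for collagens and 4.803% for proteoglycans and elastic fibre genes, while over all genes tested it was 90.1%. In bulk RNA, fewer cells of a type and less RNA per cell cannot be told apart, and the value depends on the scaling (3.15% without it), so it is a ratio of transcript levels and not a share of cells.

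The collagens were the list with the highest median difference. Of 34 collagen genes 32 were tested, 26 were higher, 22 of them at least 8-fold, and 3 were lower, with a median of 4.46. Per kb of exon, Col3a1 was the highest of the list in the progenitors, at 1592 CPM per kb. Col3a1, of reticular fibres, was at 18693, 17123 and 11066 CPM against 225 and 358 CPM (log2 fold change 5.74 ± 0.58). Col1a2 was at 10202, 7960.5 and 8698 against 303 and 586 CPM (log2 fold change 4.33 ± 0.505). Among the called members, Col6a6, Col4a5 and Col14a1 had the largest differences. Col6a6, a chain of the beaded collagen VI that surrounds muscle fibres, was at 418, 398 and 155 against 1.32 and 1.28 CPM (log2 fold change 7.95 ± 0.59). Col4a5, a chain of basement membrane collagen IV, was at 229, 218 and 124 against 1.61 and 1.92 CPM (log2 fold change 6.75 ± 0.41), and Col4a4 at 91.2, 60.1 and 37.5 against 1.02 and 0.718 CPM. Col14a1, which coats fibrils, was at 985, 869 and 961 against 6.59 and 11.3 CPM. Col6a6, Col4a5 and Col4a4 were lowest in 73C3, as was Col3a1, while Col14a1 varied little.

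The 3 lower collagens were Col22a1, Col7a1 and Col11a2. Col22a1, found at the junction of muscle and tendon, was at 7.03, 4.09 and 8.76 against 36.4 and 43.1 CPM (log2 fold change -2.58 ± 0.302). Col7a1 was at 2.51, 1.42 and 0.252 against 6.15 and 11.1 CPM, a call lost without 73A7 (difference -2.16, adjusted p = 0.0648). Without 72B8 it was -3.37. Col11a2 was at 6.899, 5.45 and 5.39 against 9.29 and 9.4995 CPM, with a small difference of -0.67 whose call was lost when any of the 5 libraries was left out except 73C3. Col6a5, named here after its values were known, was at 7.61, 57.9 and 1.91 against 0.146 and 0.479 CPM and was not called (adjusted p = 0.0504). The progenitor libraries lay far apart, with 74A2 the highest.

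Proteoglycans and elastic fibre genes were almost all higher. All 35 on the list were tested, 33 were higher, 29 of them at least 8-fold, and none was lower, with a median of 4.38. Fbn1, the fibrillin that forms microfibrils, was at 9156, 6207 and 5824 CPM against 36.7 and 43.4 CPM (log2 fold change 7.46 ± 0.54, adjusted p = 1.69e-06). Dcn, a small proteoglycan that binds collagen fibrils, was at 11578, 10828 and 15507 against 318 and 461 CPM (log2 fold change 5.02 ± 0.52). Vcan, a large proteoglycan, was at 640.3, 410.1 and 425 against 4.76 and 7.34 CPM (log2 fold change 6.35 ± 0.41). Fn1, the adhesive protein fibronectin, was at 7385, 4311 and 4171 against 59.9 and 102 CPM, and Efemp1 at 655, 379 and 695 against 8.78 and 12.3 CPM. Fbn1, Vcan and Fn1 were highest in 72B8. Ltbp2 and Fmod were the members not called. Fmod, abundant in tendon and named here after its values were known, was at 245, 129.5 and 329 against 153 and 241 CPM (adjusted p = 0.565), so that the materials overlapped.

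Basement membrane and integrin genes lay on both sides. Of 41 listed 40 were tested, with a median of 1.33. Of these, 23 were higher (57.5%), 15 of them at least 8-fold, and 13 were lower (32.5%), 9 of them at least 8-fold. The shares over all genes tested were 37.7% higher and 34.4% lower, so the lower share was near that of all genes. The basement membrane proteins Nid1 (4419, 3583 and 3163 against 70.4 and 83.5 CPM, log2 fold change 5.596 ± 0.43), Lama2 (2164, 2009.6 and 1388 against 44.4 and 37.8 CPM, log2 fold change 5.495 ± 0.41) and Lamc1 (log2 fold change 4.56 ± 0.397) were higher in the progenitors. Lama2 is the laminin chain that the fibre's receptors bind. Itga11, a collagen-binding integrin, was at 480.1, 436 and 272 against 3.07 and 4.47 CPM (log2 fold change 6.71 ± 0.42). Genes of the fibre membrane were among the lower members. Sgca, of the sarcoglycan complex, was at 0.0645, 0.114 and 0.252 against 204 and 284 CPM (log2 fold change -10.59 ± 0.395), and Itgb1bp2 at 0.0645, 0.114 and 0.0503 against 205 and 256 CPM. Itgb1bp2 encodes melusin, a muscle partner of beta1 integrin. Without 73C3, Sgca differed by -11.35.

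Proteases and their inhibitors were mostly higher. All 35 were tested, with a median of 4.19. Of these, 27 were higher, 23 of them at least 8-fold, and 5 lower, 4 of them at least 8-fold. Mmp2, a gelatinase, was at 2123, 2538 and 1894 CPM against 51 and 83.7 CPM (log2 fold change 5.02 ± 0.42), and its regulator Timp2 was at 3537, 2429 and 3732 against 123 and 172 CPM (log2 fold change 4.45 ± 0.43). The aggrecanase gene Adamts4 was at 18.4, 24.5 and 12.4 CPM in the progenitors and had 1 count in muscle, a ratio of 476 with a 95% counting interval of 85.2 to 18823. Adamts12 was at 121, 134 and 57.9 against 1.32 and 0.479 CPM, with the lowest progenitor level in 73C3. Timp4 was the lower member with the largest difference, at 2.19, 0.227 and 2.57 against 63.9 and 78.4 CPM (log2 fold change -5.41 ± 0.57). Without 73C3 that difference was -6.002.

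The complement list lay on both sides. Of 21 genes 19 were tested, with a median of 2.098. Of these, 10 were higher (52.6%), 9 of them at least 8-fold, and 6 were lower (31.6%), 5 of them at least 8-fold. The shares over all genes tested were 37.7% higher and 34.4% lower, so the lower share was near that of all genes. C3, the central component, was at 6603, 3990.02 and 4258 CPM against 33.4 and 80.8 CPM (log2 fold change 6.44 ± 0.61, adjusted p = 9.52e-06). Serping1, the C1 inhibitor, was at 2237, 1639 and 2862 against 56.1 and 98.8 CPM (log2 fold change 4.86 ± 0.47), and C1ra, a protease of the C1 complex, differed by 4.97. C7, of the membrane attack complex, was at 697, 39.5 and 652 against 4.17 and 3.11 CPM (log2 fold change 6.98 ± 1.27, adjusted p = 0.00123). It was low in 74A2, the female library. Without 72B8 the difference of C7 was 6.57 with an adjusted p of 0.0714, and without 74A2 it was 7.496. Lower members included C1qa, a macrophage product, at 0.0645, 0.511 and 1.21 against 5.63 and 25.5 CPM, and Cfd, an adipocyte product, at 0.0645, 0.227 and 0 against 26.5 and 97.6 CPM (log2 fold change -9.24 ± 0.77). The call of C1qa was lost without 74A2 (difference -4.501, adjusted p = 0.0903). It was -5.33 without 73A5, -3.18 without 73A7 and -5.74 without 73C3. Cfd differed by -9.89 without 73A5, -8.02 without 73A7 and -10.74 without 74A2, and C3 by 7.21 without 73A7. Cd59a, an inhibitor of the attack complex, was at 0.387, 1.08 and 0.705 against 33.2 and 50.1 CPM (log2 fold change -5.81 ± 0.37).

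Chemokine and cytokine genes were mostly higher. Of 27 listed 23 were tested, with a median of 3.56. Of these, 18 were higher, 13 of them at least 8-fold, and 3 lower, 1 of them at least 8-fold. Cxcl1, which draws neutrophils, was at 42.1, 58.04 and 74.1 CPM against 0.0732 and 0.559 CPM (log2 fold change 7.53 ± 0.54). It differed by 6.69 without 73A5 and 9.49 without 73A7. Csf1, the growth factor of macrophages, was at 347, 363 and 424 against 11.2 and 12.3 CPM (log2 fold change 5.01 ± 0.29). Ccl11, which draws eosinophils, was at 429, 574 and 509.6 against 16.2 and 25.7 CPM (log2 fold change 4.59 ± 0.35), and Cxcl14 at 953, 1018 and 649 against 43.98 and 84.3 CPM. Lif, a cytokine of the IL-6 family, was at 20.4, 12.6 and 14.4 against 0.146 and 0.239 CPM. The lower members were Spp1, Il15 and Ccl25. Il15, which muscle fibres are known to make, was at 6.899, 6.19 and 6.09 against 16.2 and 15.4 CPM (log2 fold change -1.31 ± 0.23).

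Among growth factors and their antagonists 54 of 59 were tested, with a median of 2.56. Of these, 38 were higher, 24 of them at least 8-fold, and 12 lower, 7 of them at least 8-fold. Myostatin and its inhibitor follistatin lay on opposite sides. Mstn, the myostatin that limits muscle growth, was at 0.193, 0.114 and 0.201 CPM in the progenitors and 42.95 and 19.96 CPM in muscle (log2 fold change -7.47 ± 0.46, adjusted p = 7.12e-07). Without 73A5 the difference of Mstn was -6.81. Fst, follistatin, which binds myostatin and activins, was at 184, 232 and 212 against 5.34 and 4.23 CPM (log2 fold change 5.45 ± 0.29, adjusted p = 3.60e-07). Fstl1, a related secreted protein, was at 3222, 2763 and 3302 against 68.7 and 112 CPM. Fgf10, a mesenchymal FGF, was at 20.95, 23.1 and 18.3 against 0.0732 and 0.239 CPM, and Bmper, a BMP regulator, and Angptl1 were higher by 5.56 and 6.16. Fgf13, which acts inside cells on sodium channels, was at 0.129, 0.341 and 0.302 against 42.7 and 35.04 CPM (log2 fold change -7.17 ± 0.34). Ostn, which encodes the muscle peptide musclin, had 3 counts in the progenitors and was higher in muscle by a ratio of 93.05 with a 95% counting interval of 31.2 to 457.

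Receptors for such factors were higher for 41 and lower for 16 of 64 tested out of 66, with a median of 1.55. Of these, 18 were at least 8-fold higher and 4 at least 8-fold lower. Besides Pdgfra, the largest differences were in Egfr, the receptor of EGF (494, 415 and 379 against 5.34 and 7.26 CPM, log2 fold change 6.09 ± 0.34), in Cmklr1, the chemerin receptor (255, 363 and 291 against 4.902 and 8.38 CPM), and in Ret, the receptor of GDNF-family ligands (239, 304 and 136 against 5.41 and 4.95 CPM, log2 fold change 5.45 ± 0.42). Ackr3, a scavenger of the chemokine CXCL12, was at 794, 872 and 1017 against 20.4 and 28.02 CPM (log2 fold change 5.21 ± 0.35). The muscle stem cell receptor Fgfr4 had 2 counts in the progenitors, with a ratio of 92.04 with a 95% counting interval of 24.8 to 771 in favour of muscle. Ednrb, an endothelin receptor, was at 0.451, 0.511 and 1.31 against 19.7 and 14.2 CPM (log2 fold change -4.44 ± 0.43, and -5.202 without 73C3).

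The Wnt pathway is the one that the altered beta-catenin allele of the series acts in, so its parts were read out in the unaltered cells. Of 53 ligands, receptors and modulators 41 were tested, with a median of 1.14. The 24 higher members (58.5%) held 12 with a difference of 8-fold or more. The 6 lower members (14.6%) held 4 such genes. For comparison, 37.7% of all genes tested were higher and 34.4% were lower. Among ligands, Wnt10b, which blocks adipogenesis, was at 44.3, 25.04 and 47.7 CPM against 0.2195 and 0.1597 CPM (log2 fold change 7.62 ± 0.504, adjusted p = 1.04e-06). Wnt2 was at 15.1, 8.12 and 20.1 CPM and had 2 counts in muscle, a ratio of 192 with a 95% counting interval of 52.9 to 1587. Wnt4 went the other way, at 0.516, 2.21 and 0.201 against 30.95 and 36.4 CPM (log2 fold change -5.105 ± 0.61). Among receptors, Fzd9 was also lower, at 0.193, 0.114 and 0.403 against 21.4 and 25.1 CPM (log2 fold change -6.53 ± 0.39), and the coreceptor Lrp6 was somewhat higher, at 190.5, 209.9 and 176 against 103 and 81.7 CPM (log2 fold change 1.06 ± 0.23). Secreted inhibitors were on both sides. Sfrp1 (86.3, 80.2 and 84.1 against 2.71 and 2.55 CPM), Sfrp2 (99.4, 49.1 and 92.7 against 0.146 and 1.44 CPM) and Sfrp4 (141, 92.3 and 161 against 2.12 and 8.14 CPM) were higher, and Frzb (1.29, 1.59 and 2.21 against 22.98 and 18.9 CPM, log2 fold change -3.61 ± 0.29) was lower. Without 73A7, Sfrp2 differed by 9.03 instead of 6.69, and without 73A5 by 5.81. Wnt4 differed by -6.61 without 74A2, and Fzd9 by -7.27 without 73C3.

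Inside the cell, 25 of 28 listed effectors and targets were tested, 13 were higher (52%) and 6 lower (24%), with a median of 0.91. Over all genes tested, 37.7% were higher and 34.4% lower, 11.7 and 11.2% at least 8-fold. Without scaling 17 members were higher and 2 lower. Only 1 member was at least 8-fold apart, Myc, at 81.2, 129.9 and 140.2 against 3.51 and 5.27 CPM (log2 fold change 4.74 ± 0.36). Myc is also an immediate-early gene and stands on that list as well. The nuclear partners of beta-catenin Tcf7l1 (72.7, 77.3 and 68.8 against 9.44 and 10.3 CPM, log2 fold change 2.89 ± 0.22) and Tcf7l2 (33.7, 39.1 and 37.8 against 6.59 and 10.3 CPM, log2 fold change 2.13 ± 0.26) were higher, while Tcf7 and Lef1 had too few counts in either material to be tested. Axin2, a feedback target of the pathway, was lower, at 3.48, 3.12 and 2.32 CPM in the progenitors and 13.7 and 11.5 CPM in muscle (log2 fold change -2.08 ± 0.29, adjusted p = 0.000114). Gsk3a, a kinase of the destruction complex, was at 69.4, 66.1 and 70.4 against 157 and 161 CPM (log2 fold change -1.21 ± 0.19). Dvl1 was at 84.7, 98.4 and 34.3 against 211 and 165 CPM, low in 73C3, and its call was lost without 73A5 (difference -1.18, adjusted p = 0.079).

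Position and limb genes differed in both directions. Of 52 genes 40 were tested, 18 were higher (45.0%), 9 of them at least 8-fold, and 7 lower (17.5%), 1 of them at least 8-fold, with a median of 0.75. The share called in either direction was below the 72.1% of all genes tested, of which 37.7% were higher and 34.4% lower. Without scaling 23 were higher and 5 lower. Prrx2 (20.7, 24.2 and 20.7 against 0.805 and 1.44 CPM, log2 fold change 4.29 ± 0.33) and Twist1 (48.2, 43.8 and 47.2 against 2.12 and 3.43 CPM, log2 fold change 4.06 ± 0.29), factors of embryonic limb mesenchyme, were higher. Meis2 was at 20.1, 22.3 and 19.8 against 0.146 and 0.319 CPM. Tbx5, best known from the forelimb bud, was at 14.2, 10.8 and 14.7 CPM in these hindlimb cells and had 1 count in muscle, a ratio of 348 with a 95% counting interval of 62.3 to 13766. The hindlimb factors Pitx1 (4.71, 4.15 and 4.28 against 0.293 and 1.44 CPM) and Tbx4 (11.2, 15.2 and 9.11 against 2.85 and 2.55 CPM), named here after their values were known, were higher too. Tbx15 was lower, at 107, 98.1 and 97.9 against 556 and 537 CPM (log2 fold change -2.43 ± 0.22), as were Hoxa4 (-2.55) and Hoxa13. Hoxa13, of the distal limb, had 2 counts in the progenitors and was at 3.15 and 1.36 CPM in muscle. Because the progenitors came from hindlimb and the lysate from 1 of its muscles, position and material cannot be told apart in this list.

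Retinoid genes were higher for 11 (55%) and lower for 6 (30%) of 20 tested out of 23, with a median of 1.25. Of these, 5 and 1 were at least 8-fold apart. The shares over all genes tested were 37.7% higher and 34.4% lower, so the lower share was near that of all genes. Without scaling 11 were higher and 2 lower. The retinoic acid producing enzymes Aldh1a2 (102, 53.9 and 78.2 against 2.78 and 3.99 CPM, log2 fold change 4.53 ± 0.36) and Aldh1a3 (76.3, 41.9 and 70.5 against 2.27 and 2.71 CPM, log2 fold change 4.66 ± 0.36) were higher, while Aldh1a1, of the same family, was lower (108, 71.9 and 111 against 259 and 274 CPM, log2 fold change -1.46 ± 0.25). The receptor Rxrg was at 1.55, 3.29 and 1.36 against 62.3 and 67.2 CPM (log2 fold change -4.97 ± 0.35). All 3 enzymes were read in every library.

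Adipogenic and lipid genes were higher for 7 and lower for 13 of 25, 3 and 11 of them at least 8-fold, with a median of -1.69. The higher members include factors that act early in adipogenesis and enzymes of fatty acid synthesis. The factors Ebf2 (159, 141 and 169 against 7.46 and 7.903 CPM, log2 fold change 4.35 ± 0.25), Ebf1 (log2 fold change 3.23 ± 0.27) and Cebpd (282, 564 and 539 against 14.7 and 55.1 CPM, log2 fold change 3.73 ± 0.58) were higher, as was Fasn, the fatty acid synthase (161, 282 and 181 against 22.2 and 37.8 CPM, log2 fold change 2.797 ± 0.35), named after its value was known. Cebpd differed by 4.97 without 73A7 and 3.07 without 73A5. Products of the mature fat cell were among the lower members. Adipoq, which encodes adiponectin, had 1 count in the progenitors and was at 4.61 and 17.6 CPM in muscle, a ratio of 572 with a 95% counting interval of 102 to 22689.8. Cidec, a lipid droplet protein, had 0 counts in the progenitors and was at 4.17 and 17.003 CPM in muscle, so that its bound of at least 182-fold lower rests largely on 73A7. Plin4 was at 1.096, 2.39 and 0.755 against 272 and 246 CPM. Lpl, the lipase that frees fatty acids from lipoproteins, overlapped between the materials at 724, 807 and 502 against 981 and 711 CPM (adjusted p = 0.371).

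Tendon, cartilage and bone genes were higher for 8 (36.4%) and lower for 4 (18.2%) of 22 tested out of 25, 4 and 3 of them at least 8-fold, with a median of 0.73, and 10 were not called. The share called in either direction was below the 72.1% of all genes tested, of which 37.7% were higher and 34.4% lower. Without scaling 14 were higher and 3 lower. Cilp, a matrix protein of cartilage and fibroblasts, was at 1007, 998 and 1036 against 33.6 and 50.2 CPM (log2 fold change 4.597 ± 0.34). Sox6, which also sets the fibre type of muscle, was at 1.16, 0.341 and 1.11 against 199 and 162 CPM (log2 fold change -7.69 ± 0.39). Egr1, a tendon factor and an immediate-early gene, is described with the latter.

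The sarcomere was the list with the lowest median, -11.22 on the log2 scale. Of 50 genes 49 were tested and 48 were lower, each at least 8-fold, and none was higher. Summed over the list, these genes took 21.9 and 24.7% of all counts in muscle, and 0.0324 (72B8), 0.0371 (74A2) and 0.0528% (73C3) in the progenitors. Myh4, the myosin of the fastest fibres, was at 1.16, 3.69 and 4.48 CPM in the progenitors and 44699 and 44507 CPM in muscle (log2 fold change -13.79 ± 0.83, adjusted p = 6.37e-07). Acta1, the skeletal actin, was at 4.96, 18.4 and 40.9 against 27751 and 36287 CPM (log2 fold change -10.54 ± 0.96). Ttn, the titin spring, was at 0.322, 0.284 and 0.453 against 7569 and 8797 CPM (log2 fold change -14.45 ± 0.55). The small amount read in the progenitors was lowest in 72B8 and highest in 73C3 for Acta1, Myh4 and Myh1, and the part of carried-over fibre RNA in it was not tested. Without 73C3 the difference of Acta1 was -11.502 and that of Myh1 -16.29. The member not called was Tpm3, singled out for that, at 80.98, 78.9 and 91.7 against 56.3 and 91.2 CPM (adjusted p = 0.516). Tpm3 holds both a slow-muscle tropomyosin and forms read in most cells.

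Excitation-contraction coupling followed the sarcomere. Of 31 genes 30 were tested, 27 were lower, 23 of them at least 8-fold, and 3 were higher, with a median of -10.10. Atp2a1, the calcium pump of fast fibres, was at 2.13, 9.48 and 17.7 CPM against 36471 and 36256 CPM (log2 fold change -11.85 ± 0.98, and -12.69 without 73C3). Pvalb, a calcium buffer, was at 0.967, 2.67 and 6.95 against 13172 and 17349 CPM. Trdn (log2 fold change -13.14 ± 0.44) and Hrc (log2 fold change -13.33 ± 0.48), both of the calcium store, were near 0 in the progenitors. Cacng6, a calcium channel subunit, had 0 counts there and was at least 1532-fold lower. The 3 higher genes also serve calcium handling outside fast fibres. They were the pump Atp2a2 (311, 300.2 and 266 against 74.1 and 83.98 CPM, log2 fold change 1.89 ± 0.24) and the release channels Itpr1 (80.3, 83.6 and 43.3 against 42.8 and 30.2 CPM) and Itpr3 (log2 fold change 1.58 ± 0.33). The call of Itpr1 was lost without 73A7 (0.69, adjusted p = 0.183) and without 72B8 (0.804, adjusted p = 0.0576).

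The promoters of these genes were searched for 8 short motifs, because sarcomere genes and immediate-early genes, at opposite ends of this comparison, are both textbook targets of serum response factor, which binds the CArG box. The windows were 300 bases long, from 250 before to 50 after each start site, from RefSeq on GRCm38.p6, and both strands were read. Of 36 sarcomere genes with a window 7 (19.4%) held a CArG box, among them Nebl, which had not been tested for a difference. The share was 1.62% of the 10113 tested genes with a window and 1.81% of all 27025 genes with a window. The motif of the MEF2 factors was in 8.33% of the sarcomere genes and 0.653% of the tested genes. The lists of excitation-contraction coupling and of glycolysis, glycogen and creatine, also mostly lower in the progenitors, were searched too. The CArG box was in 0 of 19 and 1 of 46 (2.17%) of their genes with a window, and the MEF2 motif in 5.26 and 2.17%. The share of CArG boxes in the sarcomere list was thus not shared by these lists. Among the 26 immediate-early genes with a window, 2 (7.69%) held a CArG box and 3 (11.5%) the MEF2 motif. Fos held neither, and sites further than 250 bases upstream were not searched. No collagen, proteoglycan or identity gene with a window held either motif. Genes at least 8-fold lower held the CArG box in 2.82% and the MEF2 motif in 2.73%, and those at least 8-fold higher in 1.52 and 0.626%. The other 6 were CAGCTG (38.9% of sarcomere and 18.5% of tested genes), CATTCC (38.9 and 14.7%), TATAAA (33.3 and 8.99%), TGANTCA (13.9 and 6.23%), CCAAT (36.1 and 42.6%) and TGACGTCA (2.78 and 3.49%). A match is a run of letters and not a shown binding site. Matches of different motifs may overlap.

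The stretches below lie just upstream of RefSeq start sites, outside every exon of GENCODE M21, and show such matches in genes of opposite direction. They were chosen after their matches were seen, because each holds 1, and read 5′ to 3′ with the CArG box, or for Xirp2 the MEF2 motif, in capitals. Actc1 (chr2:114052888-114053025, minus strand), the cardiac actin that skeletal muscle also reads, was at 0, 0.114 and 0.252 against 133 and 133 CPM. Myh4 (chr11:67237662-67237811, plus strand) is described above. Myom1 (chr17:71019407-71019520, plus strand), of the M-band, was at 0.967, 1.48 and 0.755 against 2618 and 2493 CPM. Xirp2 (chr2:67445852-67446001, plus strand), an actin-binding protein of the fibre, was at 0.258, 0.738 and 0.755 against 3807 and 4126 CPM. Egr2 (chr10:67537719-67537868, plus strand), an immediate-early factor, was higher in the progenitors, at 10.8, 31.4 and 22.7 against 1.24 and 3.03 CPM (log2 fold change 3.35 ± 0.53, and 4.11 without 73A7). The capitals begin 47, 104, 99, 74 and 72 bases before the start site in that order.
Actc1: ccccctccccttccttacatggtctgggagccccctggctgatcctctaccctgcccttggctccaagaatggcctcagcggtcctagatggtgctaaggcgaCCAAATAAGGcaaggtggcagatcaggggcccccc
Myh4: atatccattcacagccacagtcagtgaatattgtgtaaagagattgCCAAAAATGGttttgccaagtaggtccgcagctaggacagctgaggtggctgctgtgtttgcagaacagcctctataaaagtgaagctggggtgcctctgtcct
Myom1: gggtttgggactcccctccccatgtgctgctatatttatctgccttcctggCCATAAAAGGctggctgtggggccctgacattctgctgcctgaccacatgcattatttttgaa
Xirp2: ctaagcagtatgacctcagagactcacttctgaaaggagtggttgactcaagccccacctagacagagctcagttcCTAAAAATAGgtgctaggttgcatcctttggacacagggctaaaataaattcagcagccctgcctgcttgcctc
Egr2: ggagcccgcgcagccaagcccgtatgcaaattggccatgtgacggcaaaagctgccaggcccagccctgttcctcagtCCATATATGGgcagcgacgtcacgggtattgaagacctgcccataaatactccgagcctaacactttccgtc

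Transcription factors of the muscle lineage were lower for 25 of 29 tested out of 31, 16 of them at least 8-fold, with a median of -3.88. Myod1, the master regulator of the lineage, had 1 count over the 3 progenitor libraries and was at 40.2 and 38.4 CPM in muscle, a ratio of 2086 with a 95% counting interval of 373 to 82453. Myf6, the family member of mature fibres, was at 0, 0.0568 and 0.151 against 113 and 139 CPM (log2 fold change -10.57 ± 0.42, and -11.75 without 73C3). Smyd1, a methyltransferase of muscle, was read only in 73C3 among the progenitors, at 0, 0 and 0.302 against 745 and 688 CPM. Mef2c was at 17.02, 11.7 and 18.02 against 968 and 945 CPM (log2 fold change -5.94 ± 0.31), and was read in all 3 progenitor libraries. Six5, a broadly read homeobox gene, was the only member called higher, at 28.3, 29.5 and 18.1 against 2.49 and 4.39 CPM (log2 fold change 2.88 ± 0.35).

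Neuromuscular junction genes were lower for 10, 9 of them at least 8-fold, and higher for 4 of 18 tested out of 20, with a median of -3.24. Without scaling 7 were higher. Chrna1, of the acetylcholine receptor, had 0 counts in the progenitors and was at 19.5 and 19.2 CPM in muscle, at least 342-fold apart. Rapsn, which clusters that receptor, had 3 counts in the progenitors, all in 73C3, and a ratio of 951 with a 95% counting interval of 325 to 4616. Ache, which breaks acetylcholine down, was at 0.451, 0.284 and 0.302 against 70.1 and 65.9 CPM (log2 fold change -7.61 ± 0.28). The higher members were Lamb2, Utrn, Phldb2 and Musk. The call of Phldb2 was lost without 73A7 (0.62, adjusted p = 0.189) and without 72B8. They include the laminin Lamb2 (1749.8, 1112 and 1203 against 225 and 249 CPM, log2 fold change 2.51 ± 0.34) and Utrn, utrophin (205, 195 and 113 against 43.8 and 33.8 CPM, log2 fold change 2.14 ± 0.31). Musk, the receptor kinase that organises the junction, named after its values were known, was at 12.4, 6.19 and 10.1 against 6.44 and 3.43 CPM, so that 74A2 lay below 73A5, with a difference of 0.95 (adjusted p = 0.0478). That call was lost without 73A7, without 72B8 and without 73C3.

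Energy genes were mostly lower in the progenitors, those of oxidative phosphorylation almost throughout. Of 80 genes of oxidative phosphorylation 79 were tested, 76 were lower, 72 of them at least 8-fold, and 1 was higher, with a median of -4.02. Atp5b, of the ATP synthase, was at 434, 425 and 583 CPM against 6629 and 6604 CPM (log2 fold change -3.78 ± 0.35). The muscle-type subunits Cox6a2, Cox8b and Cox7a1 had the 3 lowest values of the list. Cox6a2 was at 0.0645, 0.1704 and 0.403 against 1015 and 1579 CPM (log2 fold change -12.45 ± 0.54, and -13.38 without 73C3) and Cox8b at 0.5803, 1.14 and 1.06 against 694 and 811 CPM (log2 fold change -9.64 ± 0.37). The higher gene was Cox6a1, the broadly read partner of Cox6a2, at 65.1, 65.1 and 89.8 against 27.7 and 51.8 CPM (log2 fold change 0.88 ± 0.296). Its call was lost without 73C3 (0.63, adjusted p = 0.0805) and without 73A5 (0.51, adjusted p = 0.169).

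Of 52 genes of glycolysis, glycogen and creatine 49 were tested, with a median of -4.87. Of these, 37 were lower, 33 of them at least 8-fold, and 9 higher, 6 of them at least 8-fold. Ckm, the muscle creatine kinase, was at 2.06, 7.89 and 12.99 CPM against 25002 and 31459 CPM (log2 fold change -11.84 ± 0.89). Ckmt2, its mitochondrial counterpart, was at 0.129, 0.0568 and 0.252 against 3791 and 4753 CPM (log2 fold change -14.72 ± 0.57). Aldoa, an aldolase that most cells read, was at 329.7, 354 and 477 against 21368 and 27602 CPM (log2 fold change -5.98 ± 0.47). Gapdh, often used as a reference gene and singled out for that, was at 93.1, 94.7 and 124 against 2660.1 and 3402 CPM (log2 fold change -4.87 ± 0.33). Several higher members are forms known from other tissues. Pfkp (135, 114 and 137 against 6.22 and 7.66 CPM, log2 fold change 4.21 ± 0.26), Pygl (70.3, 43.95 and 65.9 against 2.41 and 4.39 CPM, log2 fold change 4.14 ± 0.36) and Eno2 (log2 fold change 3.27 ± 0.41) had the 3 largest differences of these. Without 73C3, Ckm differed by -12.54 and Ckmt2 by -15.48.

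For 31 gene families the muscle member was paired with a member read outside muscle, in most cases in many tissues, called the broad member here. The muscle member was lower in the progenitors in all 31 pairs. The broad member was higher in 16, lower in 7 and not called in 8. For comparison, 37.7% of all genes tested were higher and 34.4% were lower. Per kilobase of exon, the muscle member made up over 50% of the pair in 30 of 31 pairs in muscle and in 4 of 31 in the progenitors. The exception in muscle was Pfn2 of the profilins (47.5%), and the 4 in the progenitors were Atp2a1, Eno3, Pfkm and Slc25a4. The calcium pump pair used Atp2a3, at a mean of 2.99 CPM in the progenitors. Atp2a2, in no pair, was higher in the progenitors (log2 fold change 1.89), so the result of that pair depends on the member chosen. The broad member Eno1 was near 0 in both materials, and a gene with near-identical copies can lose reads in counting, so that pair is uncertain.

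Cytoskeletal pairs show the pattern. Des, the intermediate filament of muscle, was at 39.1, 23.3 and 53.8 against 3836 and 5233 CPM (log2 fold change -6.87 ± 0.47), and Vim, that of mesenchymal cells, at 2213, 2157 and 2789 against 138 and 218 CPM (log2 fold change 3.74 ± 0.39). Acta1 made up 99.3% of the pair with Actb per kilobase in muscle and 2.78% in the progenitors, where Actb was higher (1224, 1173 and 1528 against 356 and 473 CPM, log2 fold change 1.66 ± 0.31). Tpm2 made up 99.5% of its pair with Tpm4 in muscle and 2.7001% in the progenitors. Among translation genes, Eef1a2 made up 91.0% of its pair in muscle and 0.0241% in the progenitors, with Eef1a1 at 3373, 3112 and 6407 against 242 and 305 CPM (log2 fold change 3.97 ± 0.49). Rpl3l, the muscle form of ribosomal protein L3, made up 98.4% in muscle and 0.298% in the progenitors. Rpl3 was higher (181, 167 and 315 against 20.5 and 37.1 CPM, log2 fold change 2.94 ± 0.39). Among enzymes, Ckm made up almost the whole of its pair with Ckb in muscle and 5.59% in the progenitors, where Ckb was at 133, 104 and 147 against 7.98 and 19.7 CPM.

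In 7 pairs the broad member was lower too. Fabp5 differed by -3.01 beside -11.404 for Fabp3, both carriers of fatty acids. Cox7a2 differed by -3.499 beside -8.99 for Cox7a1. Slc16a1, a lactate transporter, differed by -2.13 beside -8.93 for Slc16a3, and the calcium pump Atp2a3 by -2.58 beside -11.85 for Atp2a1. The other 3 lower broad members differed less, with Myl12a at -1.27, Csrp1 at -0.698 and Pfn1 at -0.71. Without 73C3, Fabp3 differed by -12.88, Slc16a3 by -9.64 and Atp2a1 by -12.69. The broad members Myl12a, Csrp1 and Pfn1 were not called without scaling, and each lost its call when 1 of several libraries was left out (for Myl12a only 73A7).

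**Figure D3:**
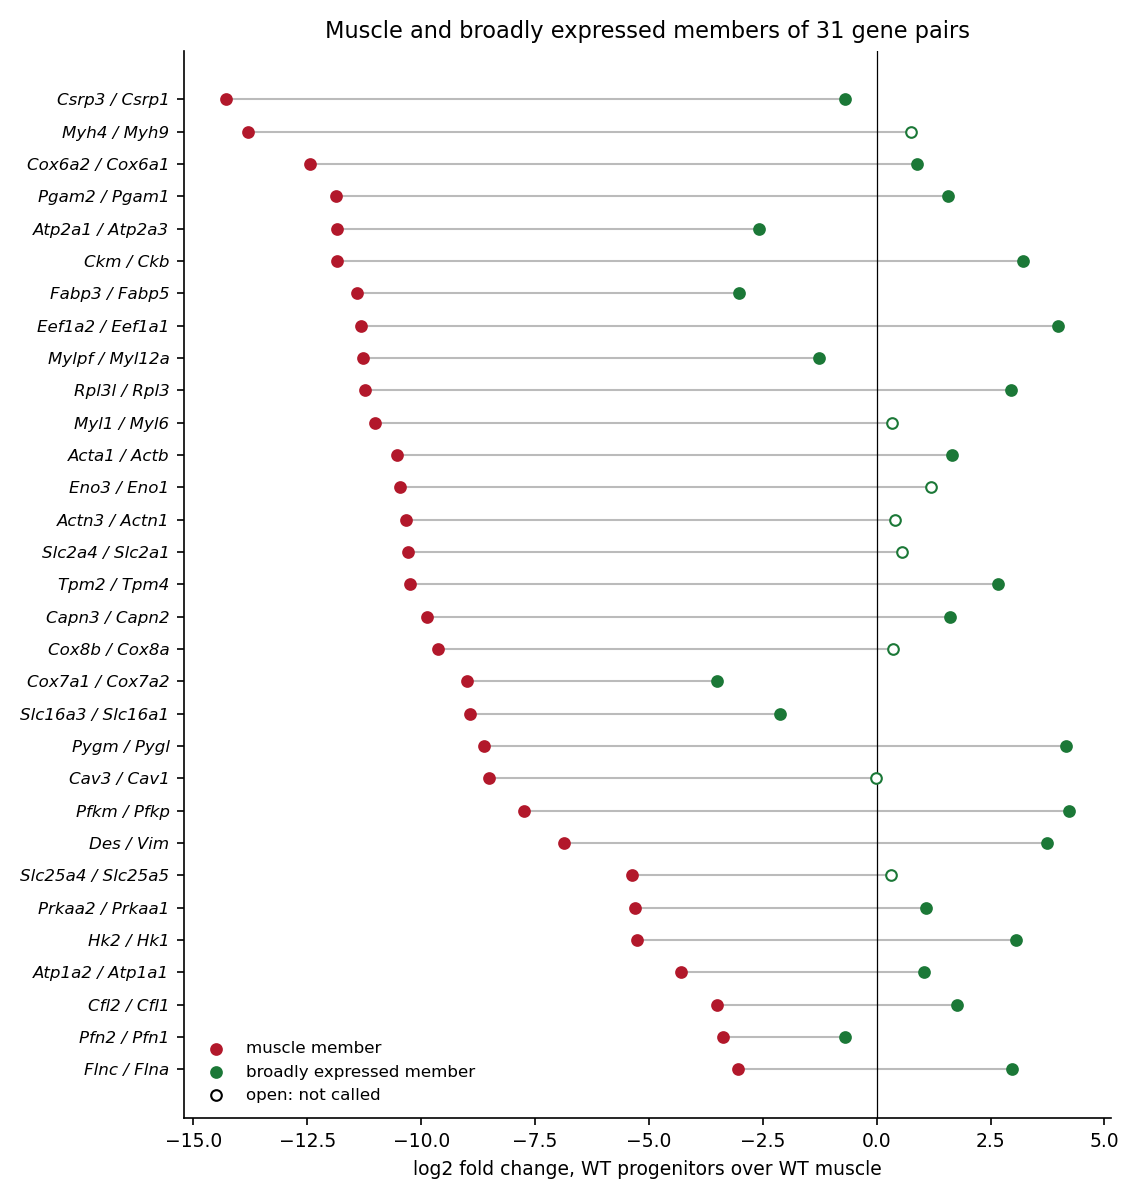
Log2 fold change of progenitors over muscle (x axis) for the muscle member (red) and the broadly read member (green) of 31 gene pairs, 1 pair a row, joined by a line. Open circles were not called; every red point lies below 0, and 16 filled green points lie above it.

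Ribosomal protein genes were the list closest to equal levels. Of 82 genes 81 were tested, 6 were higher, 6 lower and 69 not called, with a median of 0.18. Rpl4, abundant in both, was at 767, 692 and 1240.2 CPM against 772 and 933 CPM (log2 fold change 0.08 ± 0.33). Rps4x was at 490.3, 433 and 952 against 199 and 329.8 CPM (log2 fold change 1.24 ± 0.403), highest in 73C3, and its call was lost without 73A5 (0.93, adjusted p = 0.163). These counts depend on the scaling and on single libraries. Without scaling 39 were higher and 3 lower. Without 73C3, the library with the highest ribosomal share, 23 were lower, without 74A2 10 were higher, without 73A5 1 was higher, and without 73A7 3 were lower.

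Proteasome and atrophy genes were lower for 40 and higher for 5 of 47, with a median of -1.80 and 9 at least 8-fold lower. The muscle ligase Trim63 (MuRF1) was at 0, 0 and 0.252 against 309.8 and 299 CPM (log2 fold change -11.55 ± 0.56), read only in 73C3 among the progenitors. Klhl41, which protects thin filaments, was at 0.129, 0.511 and 0.956 against 1131 and 1508 CPM (log2 fold change -11.196 ± 0.56). The transcription factors that switch on such ligases were higher, with Foxo1 at 94.3, 97.3 and 101 against 33.9 and 32.4 CPM (log2 fold change 1.56 ± 0.203) and Foxo3 at 31.6, 55.03 and 23.6 against 12 and 3.27 CPM (log2 fold change 2.26 ± 0.53). Without 73A5, Foxo3 differed by 3.49, and without 73A7 by 1.61. Without 73C3, Trim63 differed by -15.19 and Klhl41 by -12.01.

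Immediate-early, heat shock and other genes known to be induced when tissue is digested were higher in the sorted cells. All 34 were tested, 27 were higher, 17 of them at least 8-fold, and 2 were lower, with a median of 3.05. Fosb was at 107, 327 and 344 CPM in the progenitors and 0.366 and 0.639 CPM in muscle (log2 fold change 9.003 ± 0.72, adjusted p = 3.21e-06). Fos was at 501, 1958 and 1765 against 6 and 2.63 CPM (log2 fold change 8.34 ± 0.81, and 9.07 without 73A5), and Egr1 at 730, 1853 and 1608 against 8.05 and 6.31 CPM (log2 fold change 7.602 ± 0.57). These are transcription factors that cells switch on within minutes of a stimulus. Hspa1b, an inducible heat shock protein, was at 667, 964 and 622 against 3.37 and 4.07 CPM (log2 fold change 7.66 ± 0.42), and Socs3, which restrains cytokine signals, at 203, 801 and 1023 against 3.07 and 4.31 CPM (log2 fold change 7.52 ± 0.79). Jun was at 935, 2475 and 1645 against 167 and 161 CPM (log2 fold change 3.36 ± 0.46).

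The level varied between progenitor libraries. The list took 1.10% of counts in 72B8, 2.30% in 74A2 and 2.06% in 73C3, and 0.183 and 0.240% in the muscle libraries. Fos, Fosb, Egr1, Socs3 and Jun were lowest in 72B8, and Hspa1b was not. Per the labels' protocols only the sorted cells passed through a single cell suspension, so digestion and material cannot be told apart in these genes. The 2 lower members were Hspb1, a small heat shock protein abundant in muscle (39.98, 66.9 and 54.3 against 107 and 397 CPM, log2 fold change -2.23 ± 0.46), and Gadd45g (118, 108 and 126 against 129 and 392 CPM, log2 fold change -1.15 ± 0.39). Both were higher in 73A7 than in 73A5, and without 73A7 Hspb1 differed by -0.99 and Gadd45g by -0.14, the latter with an adjusted p of 0.654. Without 73A5, Hspb1 differed by -2.88.

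Cell cycle genes lay on both sides. Of 32 genes 25 were tested, 11 were higher (44.0%), 2 of them at least 8-fold, 4 lower (16%), 1 of them at least 8-fold, and 10 not called, with a median of 0.97. The share called in either direction was below the 72.1% of all genes tested, of which 37.7% were higher and 34.4% lower. Without scaling 17 were higher. Gas1, which is tied to growth arrest, was at 385, 466 and 433 against 23.1 and 28.5 CPM (log2 fold change 4.05 ± 0.29), and Ccnd2, a cyclin of the first gap phase, at 80.9, 119 and 119 against 19.1 and 18.6 CPM (log2 fold change 2.495 ± 0.26). E2f1 was higher by 3.27. Mki67, the usual marker of dividing cells and singled out for that, was at 3.61, 0.909 and 0.302 against 0.951 and 1.76 CPM and was not called (adjusted p = 0.824). Cdkn2b, a cell cycle inhibitor, was lower, at 0.516, 0.341 and 0.503 against 1.76 and 2.47 CPM (log2 fold change -2.201 ± 0.48). Aurka, a mitotic kinase, was lower too, at 0.774, 0.398 and 0.302 against 8.05 and 8.54 CPM (log2 fold change -4.09 ± 0.43).

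Markers of other cell types of the muscle were mostly lower in the sorted cells. Immune markers were lower in 17 of 17 tested out of 20, 14 of them at least 8-fold, with a median of -3.76. The list took 0.00165 (72B8), 0.00315 (74A2) and 0.00249% (73C3) of counts, and 0.00791 (73A5) and 0.0307% (73A7) in muscle, so that the muscle libraries differed more than the progenitor libraries did. Cd74, of antigen presenting cells, was at 2.39, 6.81 and 3.88 against 17.8 and 105 CPM, and Lyz2, of myeloid cells, at 1.096, 2.16 and 3.37 against 15.4 and 41.1 CPM. The call of Cd74 was lost without 74A2 (difference -4.28, adjusted p = 0.0649). It was -4.58 without 73A5 and -2.02 without 73A7. Endothelial markers were lower for 16 and higher for 4 of 20, 16 and 1 of them at least 8-fold, with a median of -4.32. That list took 0.125 (72B8), 0.0978 (74A2) and 0.133% (73C3) of counts in the progenitors and 0.163 and 0.153% in muscle. Aqp1, a water channel, was at 36.9, 6.42 and 49.8 against 645 and 624 CPM (log2 fold change -4.35 ± 0.65, and -4.96 without 73C3) and Fabp4 at 13.2, 2.04 and 17.9 against 451 and 502 CPM. Both were lowest in 74A2, like Pecam1. The higher members were Tek (367, 283 and 320.1 against 37.8 and 28.7 CPM, log2 fold change 3.28 ± 0.28), Ramp2, Eng and Ly6c1, which mesenchymal cells are also known to read in part.

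Mural cell markers were lower for 11, 8 of them at least 8-fold, and higher for 2 of 13, with a median of -3.63. Acta2, smooth muscle actin, was at 4.45, 5.11 and 13.9 against 106 and 143 CPM (log2 fold change -3.98 ± 0.44, and -4.79 without 73C3). Rgs5, of pericytes, was at 3.03, 1.14 and 13.1 against 131 and 27.1 CPM, with a wide spread in both materials, and its call was lost when 72B8, 74A2 or 73A5 was left out. The higher members were Pdgfrb (359, 401 and 276 against 56.3 and 55.2 CPM, log2 fold change 2.63 ± 0.27) and Cspg4 (108, 188 and 81.8 against 21.5 and 28.2 CPM, log2 fold change 2.34 ± 0.37). Muscle stem cell markers were lower for 6, each at least 8-fold, and higher for 3 of 11 tested. Cdh15, M-cadherin, had 0 counts in the progenitors and was at least 519-fold lower, and Vcam1 was higher (36.9, 35.8 and 26.7 against 6.15 and 5.19 CPM, log2 fold change 2.54 ± 0.26). The median of this list is -6.18 as fitted and -4.82 with the genes at 0 counts set to their bound.

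Glial and nerve markers were lower for 7 (50%), 3 of them at least 8-fold, and higher for 3 (21.4%) of 14 tested out of 16. The median was -1.55. Over all genes tested, 34.4% were lower and 37.7% higher. The summed share of this list was higher in the progenitors, at 0.0522 (72B8), 0.0612 (74A2) and 0.0661% (73C3) of counts. In muscle it was 0.0182 (73A5) and 0.0218% (73A7). Pmp22, a myelin gene that fibroblasts also read, was higher, at 368, 426 and 472 against 53.05 and 80.9 CPM (log2 fold change 2.66 ± 0.298). All 8 adipocyte markers tested were lower, with a median of -8.85 as fitted and -7.04 at the bounds. Of these, 4 had 0 counts in the progenitors and passed the filter only through their counts in muscle. Those 4 could only come out lower, so the count of 8 is no test of the sort. Of 10 erythroid genes 2 were tested and 1 was lower, and 6 had 0 counts in both materials. In the sorted cells the genes of the negative gates were at 0.51 CPM or less for Ptprc, 8.46 CPM or less for Pecam1 and 2.97 CPM or less for Itga7. Cdh15, Myf5 and Calcr of the stem cell list and Cidec, Lep, Retn, Pck1 and Ucp1 of the adipocyte list had 0 counts there, while every endothelial and mural marker was read. The part of other cell types in the other results was not tested.

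**Figure D4:**
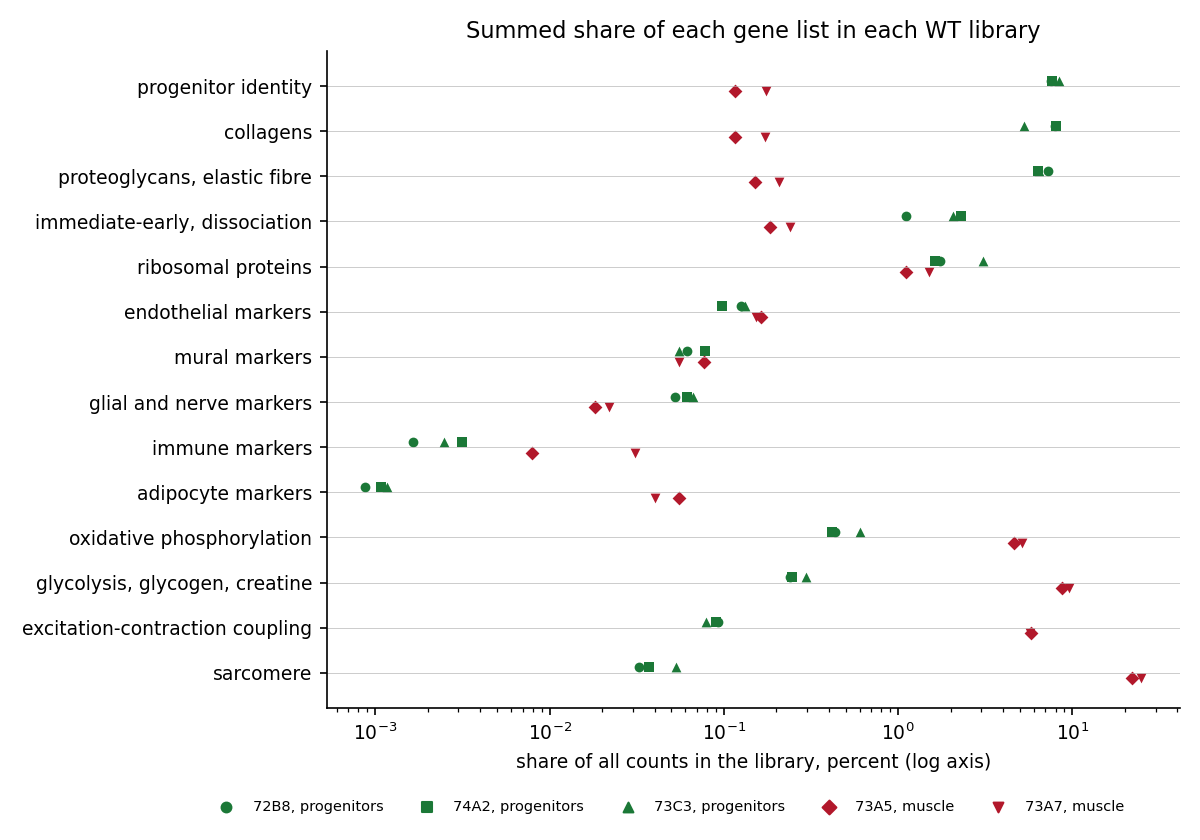
Share of all counts (percent, log axis) that each of 14 gene lists took in each of the 5 WT libraries, with progenitors in green and muscle in red. The sarcomere list lies between 0.0324 and 0.0528% in the progenitors and at 21.9 and 24.7% in muscle, and the identity and matrix lists show the opposite order.

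**Figure D5:**
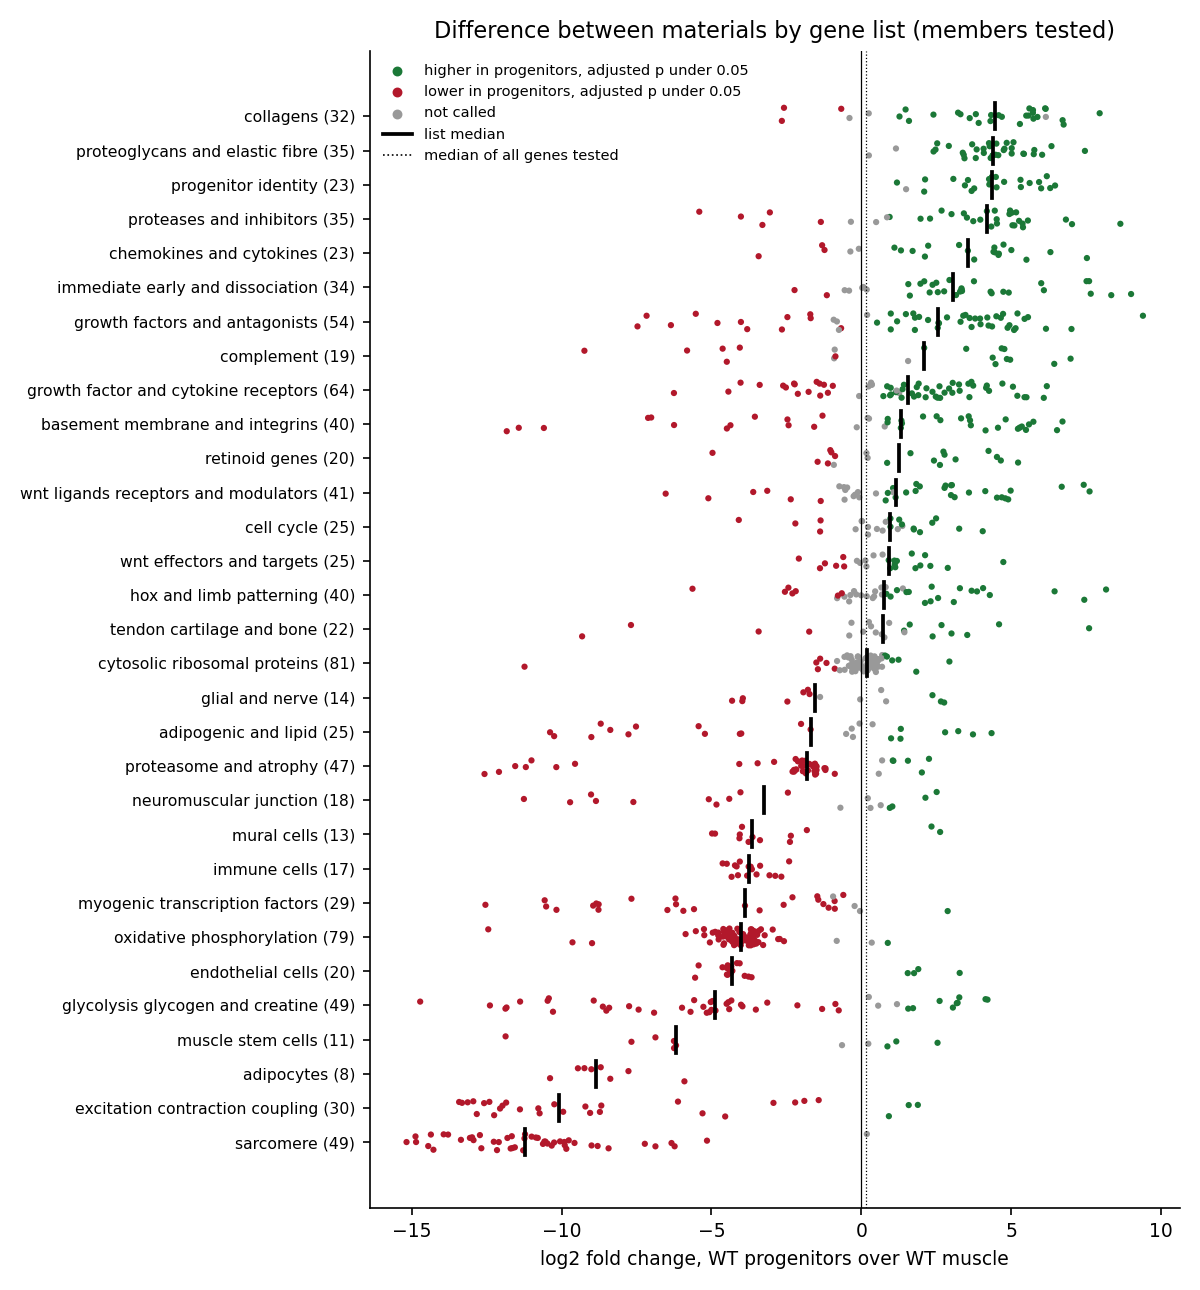
Log2 fold change of progenitors over muscle (x axis) of every tested member of 31 gene lists with at least 8 members tested, 1 list a row with its number in brackets, ordered by the list median (black bar). Medians run from 4.46 for collagens to -11.22 for the sarcomere, and the ribosomal protein genes lie around the median of all genes (dotted line).

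The same contrast can be read in the other genotype, in libraries that share no animal with those above. The 3 WTflox progenitor libraries were collected at 14 days (2 libraries) and at 56 days (1 library, animal 74A3), and the 3 WTflox lysates at 56 days. Of 13061 genes tested there, 5423 (41.5%) were higher and 5294 (40.5%) lower. Of the 9597 genes called in the WT libraries 9360 were tested, 9298 (99.3%) had the same sign and 9047 (96.7%) were also called. Of those at least 8-fold apart in the WT libraries, 2885 of 2889 had the same sign. When only the progenitor library of day 56 was set against the lysates of day 56, so that the day was the same, 9373 of 9459 WT calls had the same sign and 8897 were also called. That fit has 1 progenitor library, which is assumed to vary as the lysates do.

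The difference between materials itself differed between genotypes in 106 of 13781 genes (0.769%), by an interaction term over all 11 libraries. Of the 289 genes that the naming rule chose, those that passed were Axin2, Cdkn2b, Tcf7l2, Gadd45g and Egfr, whose values are given in the closing section. Tcf7, which had too few counts to be tested in the WT libraries alone, passed as well, with a difference of 5.30 between the contrasts (adjusted p = 0.00169). For the other named genes, a p that misses the threshold does not show that they are equal.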

How the data were processed

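RNA sequencing counts of 5 libraries, 3 of WT progenitors and 2 of WT muscle, were compared. The values are raw counts per gene symbol as deposited by the authors in 1 table for each material, joined here by symbol. Per the labels' protocols, libraries were made with a stranded mRNA kit and sequenced in pairs of 43 bp, and per the submitters' processing notes bcl2fastq 2.20, Bowtie, STAR and mm10 were used. For the counting tool, its annotation and its use of strand, the labels name nothing, so genes with near-identical copies, overlapping or antisense partners are uncertain. Symbols were matched to GENCODE M21 for 23334 of 24421.

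Genes passing filterByExpr were scaled by TMM and tested with edgeR 4.0.16 (quasi-likelihood F test, robust, two-sided, R 4.3.3), with Benjamini-Hochberg adjustment over all genes tested and a threshold of 0.05. The SE is the difference divided by the square root of F. The test was checked on simulated data, where the false share of calls lay above the nominal rate in most runs. Each library is a separate animal by its label, and 3 against 2 libraries limit the precision. Counting intervals (95%) and the floor of 3 counts over the group cover counting error only. A gene with no counts in a material passed the filter only through the other material, so its direction was set in advance.

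Gene lists hold 1077 distinct genes in 33 lists. The members and lists were chosen with earlier results of these data known. The genes named are the gate genes, and for each list up to 4 called members with the largest difference in the main direction (at least 10 CPM in the higher material), up to 3 in the other direction and the 2 most abundant. Both members of each pair, the 10 largest rises and falls (at least 100 CPM, libraries not overlapping, no predicted gene models) and the 10 highest genes per kb in each material were added. The text names part of these, and says where it names others. A few genes that the rule chose are not reported here. Alternatives were other scalings, DESeq2 1.42.0, limma 3.58.1 (voom), glmTreat, other filters, all 11 libraries, each library left out, and a replicate block added after seeing the data.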

Additional observations from a re-analysis of the deposited data

Results flagged for a closer look

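In 5 of the genes chosen by the naming rule, the difference between progenitors and muscle itself differed between the genotypes, by an edgeR interaction term over all 11 libraries. Values are log2 differences of the WTflox contrast minus the WT contrast. For Axin2 it was 4.63 (adjusted p = 3.25e-06). Its level was 111, 139 and 127 CPM in the WTflox progenitors and 17.8, 22.2 and 26.7 CPM in the WTflox muscle, so that the gene was lower in progenitors of WT mice and higher in those of WTflox mice. For Cdkn2b, a cell cycle inhibitor, it was 3.84 (adjusted p = 0.00166), with 7.91, 11.8 and 6.02 CPM in WTflox progenitors and 2.98, 2.74 and 2.70 CPM in WTflox muscle. For Tcf7l2 it was 1.56 (adjusted p = 0.0181), with 166, 124 and 160.3 CPM in WTflox progenitors and 12.7, 10.03 and 13.01 CPM in WTflox muscle. For Gadd45g it was 2.96 (adjusted p = 0.0193), with 141, 297 and 190.0 CPM in WTflox progenitors and 43.4, 58.8 and 79.9 CPM in WTflox muscle, and its level differed between the WT muscle libraries. Like Axin2, Cdkn2b and Gadd45g turned direction: the difference of Cdkn2b was -2.20 in WT and 1.62 in WTflox, and that of Gadd45g was -1.15 in WT and 1.79 in WTflox. For Egfr it was -1.31 (adjusted p = 0.0383), with 168, 215 and 217 CPM in WTflox progenitors and 7.09, 7.76 and 7.73 CPM in WTflox muscle.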

How the results depend on the processing

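The counts of genes called higher and lower, in total and at least 8-fold, stayed within 1.5 times their main value under every alternative run. Of the 289 genes chosen by rule 277 were called, and none of these 277 changed sign. That leaves out the genes not called. Among them, Cav1 (-0.02) and Lpl (-0.32) have differences smaller than the shift of 0.62 that leaving out the scaling brings. Over all called genes, 133 turned to the other sign without scaling, and without 73A5 9577 of 9578 kept their sign. Without scaling, calls split into 6749 higher and 3331 lower, and the identity genes' level in muscle was 3.15% of that in progenitors instead of 4.88%. With each library left out in turn, genes called higher numbered 4301 to 4987 and lower 4128 to 4870, at least 8-fold higher 1462 to 1675 and lower 1448 to 1583, and the level in muscle was 3.82 to 5.68%. DESeq2 called 4644 higher and 4841 lower. With the replicate number as a block, 4836 were higher and 4476 lower, 1535 and 1489 of them at least 8-fold, and 17 ribosomal protein genes were higher instead of 6. Animals differ between materials, so the numbers pair no samples, and that fit has 1 residual degree of freedom. Of the 289 genes chosen by rule, 26 lost their call against a 2-fold change (glmTreat), 9 without scaling, and 3 to 16 with a given library left out. Taken over all libraries left out in turn, 25 of the 277 called genes lost their call at least once. The fold change of 85 of the 277 moved over 1.5 times at least once. Depth limits genes with few counts in 1 material, for which ratios or bounds are given.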
